A study of Equus asinus with 12 samples.

Results

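The nuclear genes of respiratory complexes II, III, IV and V were followed in skeletal muscle of Dezhou donkeys, a large Chinese donkey breed. Members were the rows whose gene name is SDHA to SDHD or CYC1, or begins with UQCR, with COX and a digit from 4 to 8, or with ATP5. Where several rows carried a name, the row with the highest mean level was taken. The deposited name itself gave 19 members, and 25 more were found through the RefSeq symbol of a deposited LOC identifier, which is how all COX, UQCR and CYC1 members were reached. In all there were 44 members among 27084 loci: 4 of complex II, 9 of complex III, 14 of complex IV and 17 of complex V.

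RNA sequencing covered 12 libraries, 3 in each of 4 groups: gluteal and longissimus dorsi muscle of the Wutou strain, and gluteal and longissimus dorsi muscle of the Sanfen strain. All animals were labelled as 24 months old, and no label names a treatment. The design text gives 6 donkeys that each contributed both muscles, but the labels do not say which library came from which donkey, so p-values below measure only how far these libraries scatter. The values are FPKM, fragments per kilobase of transcript scaled to the mapped fragments of the library. They are corrected for length, so levels of different genes can be set side by side. Read numbers are not known for any library, and counting error is therefore not given.

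The respiratory chain passes electrons from fuel molecules to oxygen across the inner mitochondrial membrane and uses the energy to pump protons. Complex II, succinate dehydrogenase, feeds electrons from the citrate cycle into the quinone pool and pumps no protons. Complex III hands electrons from quinol to cytochrome c, complex IV (cytochrome c oxidase) passes them to oxygen, and complex V (ATP synthase) lets protons flow back and makes ATP. Complex II is encoded wholly in the nucleus, whereas the other complexes combine nuclear subunits with mitochondrially encoded ones. Several complex IV subunits exist as an isoform found in heart and skeletal muscle and another found in most tissues. Oxidative, slow-contracting muscle fibres are rich in mitochondria, and fast glycolytic fibres have fewer.

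The libraries carried the label of skeletal muscle: all 10 muscle identity genes on a fixed list were measured, with a median of their mean levels of 1732 FPKM. Correlation between libraries over all loci tested was 0.890 to 0.941 within groups and 0.883 to 0.942 between groups, so these ranges largely overlapped. The lowest value of each range involved Sanfen longissimus replicate 2, and separation of the groups was not tested. FPKM totals ran between 214564 and 319767 per library. The 44 members together held between 1.02% of that total, in Sanfen longissimus replicate 2, and 1.80%, in Sanfen gluteal replicate 1. All 44 members reached 1 FPKM in at least 3 libraries and entered the tests, which covered 12408 loci. No mitochondrially encoded gene was analysed here.

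Levels differed by more than 2 orders of magnitude between members (plot of levels by complex). Mean FPKM over the 12 libraries was at least 100 in 14 members, between 5 and 100 in 23 and under 5 in 7. The median of the member means was 55.4 FPKM in complex II, 72.6 in complex III, 82.7 in complex IV and 43.9 in complex V. The 37 complex I subunits on a fixed list had a median of 35.1 FPKM. The catalytic subunits of ATP synthase stood at the top: ATP5A1, the alpha subunit of the F1 head, averaged 407 ± 57.9 FPKM and ATP5B, the beta subunit that carries the catalytic sites, averaged 365 ± 70.1 FPKM (SD, n = 12 for both). They ranked 57 and 61 among all loci, and their difference was smaller than either SD.

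**Figure D1:**
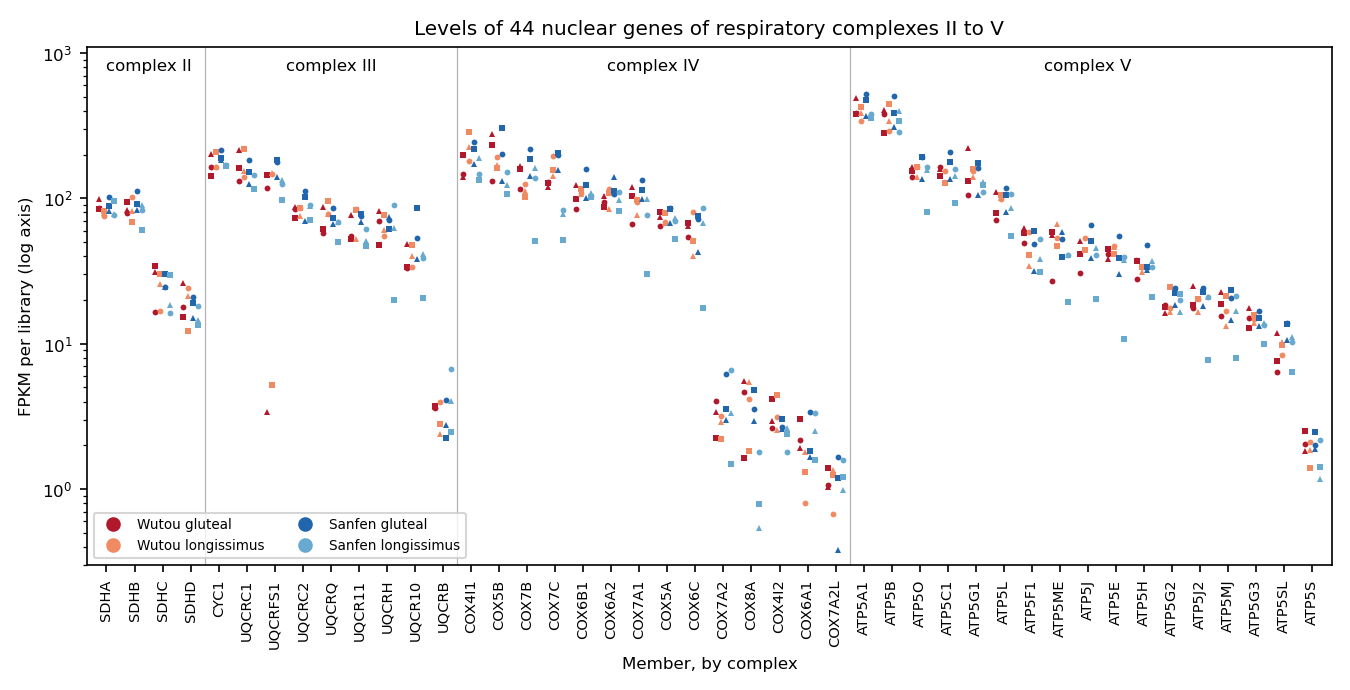
FPKM of each member in each of the 12 libraries on a log axis, with members ordered by mean within their complex. Colours give the 4 groups and marker shapes the replicate numbers (circle 1, square 2, triangle 3). ATP5A1 and ATP5B lie at the top, 7 members lie under 5 FPKM on average, and UQCRFS1 has 2 libraries far below the other 10.

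Complex II was the most even across libraries in its flavoprotein. SDHA, the flavoprotein that oxidises succinate, had 85.4, 84.7 and 99.6 FPKM in Wutou gluteal, 75.2, 82.3 and 79.4 in Wutou longissimus, 103, 88.6 and 82.5 in Sanfen gluteal and 77.2, 96.4 and 77.7 in Sanfen longissimus. Its coefficient of variation over the 12 libraries was 10.6%, the lowest of the 44 members. SDHB, the iron-sulphur subunit, had 79.4, 95.0 and 82.9 FPKM in Wutou gluteal, 103, 68.6 and 82.2 in Wutou longissimus, 112, 91.0 and 83.4 in Sanfen gluteal and 82.7, 60.9 and 90.6 in Sanfen longissimus. SDHA and SDHB had the same mean of 86.0 FPKM (SD 9.10 for SDHA and 13.8 for SDHB, n = 12).

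The 2 membrane anchors of complex II lay lower. SDHC had 16.4, 34.0 and 31.1 FPKM in Wutou gluteal, 16.8, 30.3 and 25.6 in Wutou longissimus, 24.5, 30.0 and 24.5 in Sanfen gluteal and 16.2, 29.5 and 18.5 in Sanfen longissimus. SDHD had 17.8, 15.2 and 26.4 FPKM in Wutou gluteal, 24.1, 12.2 and 21.1 in Wutou longissimus, 20.9, 19.1 and 15.0 in Sanfen gluteal and 18.1, 13.4 and 14.5 in Sanfen longissimus. The 4 groups overlapped for SDHB, SDHC and SDHD. For SDHA the Wutou groups did not overlap: every gluteal value lay above every longissimus value, with a fitted difference of 0.18 on the log2 scale (SE 0.19) that did not pass the test (limma, adjusted p = 0.943).

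In complex III, cytochrome c1 and the core protein UQCRC1 had the highest means. CYC1, the haem protein that delivers electrons to cytochrome c, averaged 179 ± 21.7 FPKM, against 155 ± 34.8 for UQCRC1 and 85.7 ± 12.8 for UQCRC2, the core subunits (SD, n = 12). CYC1 had 165, 142 and 202 FPKM in Wutou gluteal, 165, 208 and 166 in Wutou longissimus, 217, 190 and 183 in Sanfen gluteal and 169, 167 and 169 in Sanfen longissimus. Small accessory subunits ranged from 72.6 FPKM for UQCRQ, 65.5 for UQCR11, 64.2 for the hinge protein UQCRH and 42.9 for UQCR10 down to 3.54 for UQCRB. UQCRB, which helps bind quinone, ranked far below its partners in the same enzyme. How the deposited values treated reads that match several copies of a gene is not stated, so levels of members with near-identical copies elsewhere in the genome are uncertain.

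UQCRFS1, the Rieske iron-sulphur protein that takes electrons from quinol, was split by library and not by group. It had 117, 145 and 3.37 FPKM in Wutou gluteal, 146, 5.23 and 148 in Wutou longissimus, 178, 183 and 140 in Sanfen gluteal and 126, 97.7 and 134 in Sanfen longissimus. Replicate 3 of Wutou gluteal and replicate 2 of Wutou longissimus were thus far below the other 10, which lay between 97.7 and 183 FPKM. Of the 12408 loci tested, 4 had both of these libraries at a level more than 3 times below the lowest of the other 10. CYC1 was 202 and 208 FPKM in the same 2 libraries, among its highest values. In the fit UQCRFS1 had the largest fitted strain difference of any member, -1.59 averaged over muscles on the log2 scale, with an SE of 1.10 and an adjusted p of 0.866 (limma). Both low libraries are from Wutou, and the 4 other Wutou libraries, at 117 to 148 FPKM, overlapped with those of Sanfen.

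Complex IV held both abundant and scarce members, and the 2 members of several isoform pairs lay far apart. COX4I1, the broadly expressed form of subunit 4, averaged 190 ± 47.0 FPKM and COX5B, which sits on the matrix face, 182 ± 63.1 FPKM (SD, n = 12). COX7B followed at 140 and COX7C at 137, then COX6B1 at 111, COX6A2 at 104, COX7A1 at 93.0, COX5A at 72.5 and COX6C at 60.0 FPKM. The remaining 5 members, COX7A2, COX8A, COX4I2, COX6A1 and COX7A2L, had means between 1.15 and 3.51 FPKM.

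Among the loci named for subunits 6A and 7A, the heart and muscle isoforms held nearly all of the summed FPKM (plot of isoform pairs). Each isoform was read from 1 row. The uncertainty about near-identical gene copies given for complex III applies to these and the following shares too. COX6A2, the heart and muscle form, had 95.0, 87.2 and 104 FPKM in Wutou gluteal, 116, 109 and 84.6 in Wutou longissimus, 107, 112 and 139 in Sanfen gluteal and 111, 81.9 and 96.7 in Sanfen longissimus. COX6A1, the form found in liver and most tissues, had 2.18, 3.03 and 1.93 FPKM in Wutou gluteal, 0.799, 1.32 and 1.81 in Wutou longissimus, 3.42, 1.83 and 1.65 in Sanfen gluteal and 3.32, 1.58 and 2.52 in Sanfen longissimus. COX6A2 made up 97.9% ± 0.821 of the summed pair (SD, n = 12), with the libraries between 96.6% and 99.3%.

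COX7A1, the isoform of subunit 7A typical of heart and muscle, had 66.5, 105 and 120 FPKM in Wutou gluteal, 95.1, 98.0 and 76.8 in Wutou longissimus, 134, 115 and 99.3 in Sanfen gluteal and 76.6, 30.4 and 99.3 in Sanfen longissimus. COX7A2, its counterpart in other tissues, had 4.05, 2.25 and 3.39 FPKM in Wutou gluteal, 3.17, 2.22 and 2.88 in Wutou longissimus, 6.16, 3.58 and 2.98 in Sanfen gluteal and 6.59, 1.48 and 3.35 in Sanfen longissimus. COX7A1 made up 96.2% ± 1.66 of this pair, between 92.1% and 97.9% by library. COX7A2L, a relative of subunit 7A that helps complexes III and IV associate into supercomplexes, had 1.07, 1.40 and 1.04 FPKM in Wutou gluteal, 0.671, 1.24 and 1.36 in Wutou longissimus, 1.65, 1.20 and 0.382 in Sanfen gluteal and 1.60, 1.22 and 0.990 in Sanfen longissimus. Both COX7A2 and COX7A2L overlapped across all 4 groups.

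Among the loci named for subunit 4, the broadly expressed isoform held almost all of the summed FPKM. COX4I1 had 147, 198 and 141 FPKM in Wutou gluteal, 182, 287 and 227 in Wutou longissimus, 243, 219 and 173 in Sanfen gluteal and 146, 133 and 189 in Sanfen longissimus. COX4I2, known from lung, had 2.65, 4.14 and 2.94 FPKM in Wutou gluteal, 3.14, 4.43 and 2.56 in Wutou longissimus, 2.68, 3.03 and 2.61 in Sanfen gluteal and 1.81, 2.40 and 2.61 in Sanfen longissimus. The share of COX4I2 in the pair averaged 1.54% ± 0.331 (SD, n = 12).

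Isoform shares were compared between groups because a share does not depend on how a library is scaled. The share of COX4I2 averaged 1.96% ± 0.159 in Wutou gluteal, against 1.44% ± 0.299 in Wutou longissimus and 1.31% ± 0.203 in Sanfen gluteal (SD, n = 3 each), and neither pair of groups overlapped. Both differences gave p = 0.1 in an exact two-sided permutation test, which is the smallest p that 3 against 3 libraries allow, and 0.4 after adjustment over the 12 share comparisons. The shares of COX6A2 and COX7A1 gave p between 0.2 and 1 in the same exact test in each of their 8 comparisons, so no difference was shown. The share of COX7A1 was 96.5% ± 1.94 in Wutou gluteal, 97.0% ± 0.720 in Wutou longissimus, 96.6% ± 0.824 in Sanfen gluteal and 94.7% ± 2.39 in Sanfen longissimus (SD, n = 3 each).

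**Figure D2:**
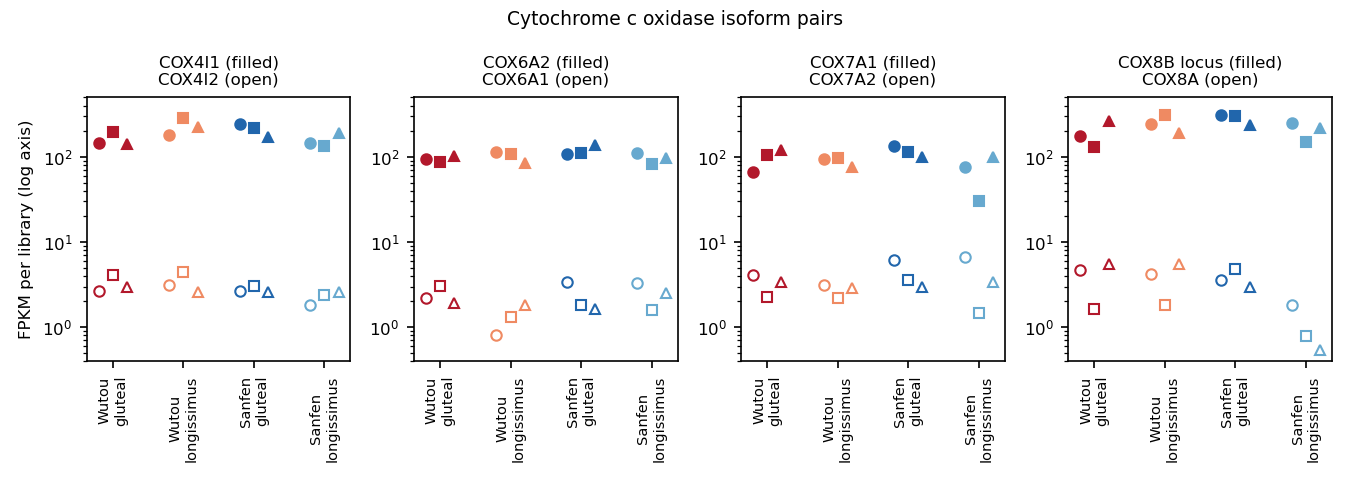
FPKM per library on a log axis for 4 pairs of complex IV isoforms, with filled markers for the more abundant member and open markers for the other. Groups run along the axis and marker shapes give the replicate number. The filled and open markers of a pair do not overlap in any group, and COX8A has its lowest group mean, 1.04 FPKM, in Sanfen longissimus.

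COX8A, the broadly expressed form of a small subunit of complex IV, was scarce. It had 4.65, 1.63 and 5.56 FPKM in Wutou gluteal, 4.19, 1.84 and 5.48 in Wutou longissimus, 3.54, 4.77 and 2.95 in Sanfen gluteal and 1.80, 0.795 and 0.537 in Sanfen longissimus. The heart and muscle form of subunit 8 known from many mammals carries no gene symbol that the name rule takes, but the deposited table describes 1 locus as cytochrome c oxidase subunit 8B. That locus averaged 232 ± 59.7 FPKM (SD, n = 12), the highest of any complex IV locus named here, and held 98.6% ± 0.799 of the pair. It is counted with none of the 44 members.

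A single row stood for each of subunits 6B and 7B. COX6B1 had 84.2, 99.3 and 123 FPKM in Wutou gluteal, 109, 116 and 106 in Wutou longissimus, 160, 123 and 100 in Sanfen gluteal and 103, 102 and 110 in Sanfen longissimus. COX7B had 116, 159 and 168 FPKM in Wutou gluteal, 125, 102 and 112 in Wutou longissimus, 217, 187 and 143 in Sanfen gluteal and 139, 50.6 and 161 in Sanfen longissimus. Both overlapped between the groups of every comparison. The NDUFA4 protein, now counted as a complex IV subunit, is also outside the name rule and averaged 223 FPKM, between 85.1 and 403 by library.

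ATP synthase members differed in level within each structural part of the enzyme. In the F1 head, ATP5A1 had 384, 381 and 494 FPKM in Wutou gluteal, 339, 423 and 385 in Wutou longissimus, 520, 476 and 371 in Sanfen gluteal and 378, 360 and 375 in Sanfen longissimus. The gamma subunit ATP5C1, part of the rotating shaft, averaged 150 FPKM and the epsilon subunit ATP5E 39.3 FPKM. In the peripheral stalk, which holds the head still, ATP5O averaged 154 FPKM, ATP5F1 47.1, ATP5J 43.9 and ATP5H 33.9. Among the small membrane subunits, ATP5L averaged 93.2 FPKM, ATP5ME 46.7, ATP5J2 19.4 and ATP5MJ 17.8.

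The c ring, the rotor through which protons pass, is built from identical mature subunits encoded by 3 genes. ATP5G1 averaged 143 FPKM, ATP5G2 19.6 and ATP5G3 14.4, so ATP5G1 made up 80.3% ± 2.98 of their sum (SD, n = 12). Its share lay between 75.9% and 86.6% by library, with both extremes in Wutou gluteal. ATP5S and ATP5SL, which the name rule also takes, are not ATP synthase subunits and are now named DMAC2L and DMAC2. They averaged 1.91 and 10.0 FPKM.

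The members did not vary alike. The highest library was less than 2 times the lowest in 14 members and at least 3 times the lowest in 15. Sanfen longissimus replicate 2 was the lowest library for 25 of 44 members and lay below the member's own mean in 39. Its median deviation over members was -0.48 on the log2 scale, against 0.04 over all loci tested (heat map of deviations). Sanfen gluteal replicate 1 was the opposite: it was the highest library for 19 members, with 43 above their own mean and a median deviation of 0.34, against 0.13 over all loci.

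The low values of Sanfen longissimus replicate 2 were uneven across members of every complex. The deviation from the member's own mean was -1.70 on the log2 scale for ATP5E, -1.62 for COX6C, -1.56 for UQCRH, -1.50 for COX7A1 and -1.37 for COX7B. ATP5E had 41.5, 45.1 and 38.1 FPKM in Wutou gluteal, 47.4, 41.2 and 46.4 in Wutou longissimus, 55.1, 39.0 and 30.4 in Sanfen gluteal and 39.5, 10.8 and 37.7 in Sanfen longissimus. By contrast, ATP5B at -0.08, CYC1 at -0.08 and ATP5A1 at -0.17 were near their own means there. Other members averaging at least 100 FPKM went both ways. COX6B1 at -0.10 and ATP5G1 at -0.17 were also near their means, whereas COX7C was at -1.28, ATP5O at -0.90, COX5B at -0.69 and ATP5C1 at -0.65. SDHA, SDHC, ATP5G2, UQCRFS1 and COX7A2L were above their means, between 0.06 and 0.29.

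Fibre-type markers were read beside these 2 libraries. The slow fibre list, with 11 of its 12 genes tested, had a mean deviation of 0.80 on the log2 scale in Sanfen longissimus replicate 2 and of 1.09 in Sanfen gluteal replicate 1, the 2 highest of the 12 libraries. The fast fibre list, with 11 of 13 genes tested, had -0.52 and -0.59 in the same libraries. Slow fibre markers were therefore high both where the members were lowest and where they were highest. Satellite cell markers had 4 of 6 genes tested and a median of their gene means of 0.934 FPKM, so their sum rests on few genes. These markers summed to 64.1 FPKM in Sanfen longissimus replicate 2, but to 18.3 and 16.2 in replicates 1 and 3 of that group. They summed to 9.38 FPKM in Sanfen gluteal replicate 1 and to at most 31.4 in any other group. The part of these markers in the members' levels was not tested.

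**Figure D3:**
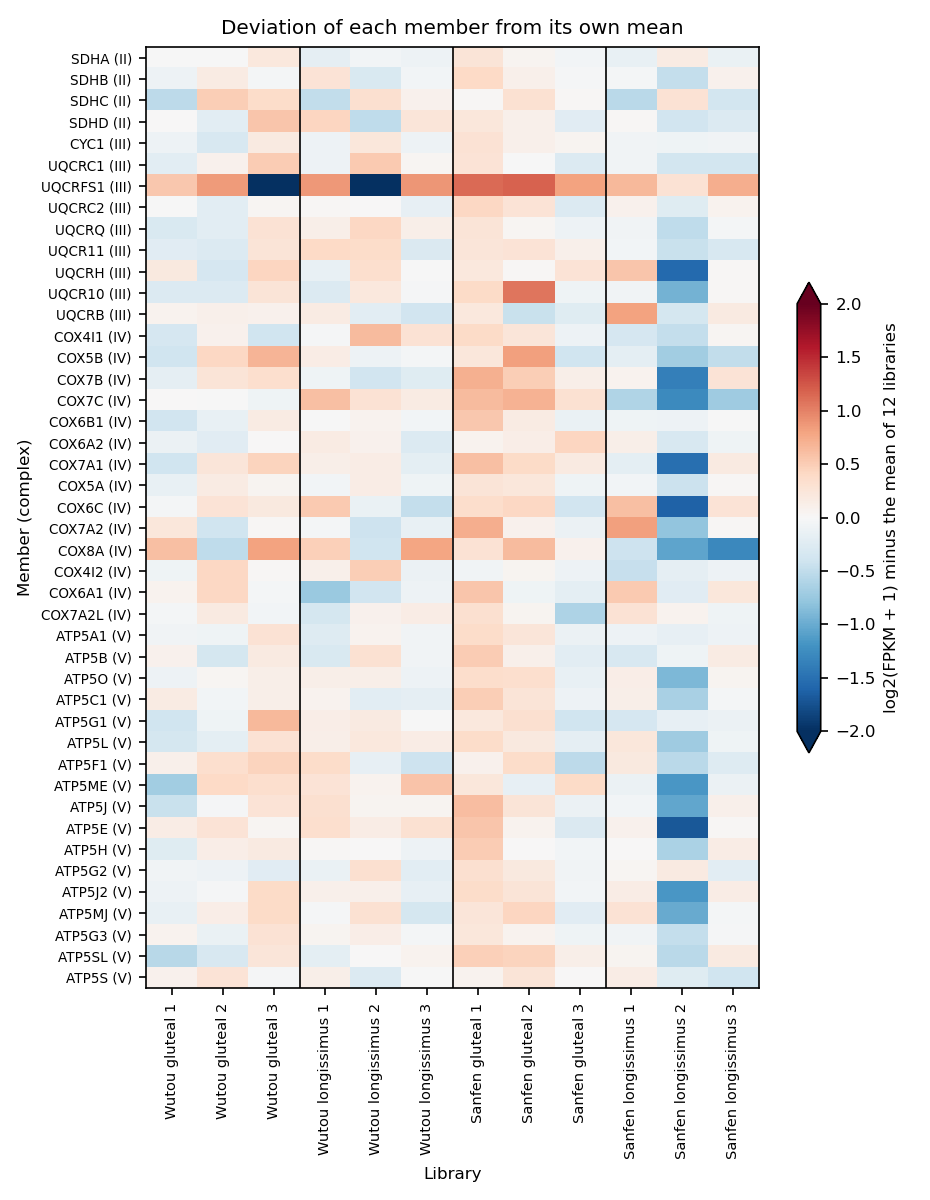
Deviation of each member in each library from its own mean over the 12 libraries, as log2(FPKM + 1), with red above and blue below. Columns are libraries by group and rows are members by complex, and colours saturate at 2. The column of Sanfen longissimus replicate 2 is blue for 39 of 44 members, and the row of UQCRFS1 has 2 saturated cells.

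Differences between the muscles and strains were tested with limma, fitted to log2(FPKM + 1) of all 12408 loci, and p-values were adjusted over these loci (Benjamini-Hochberg, threshold 0.05). None of the 44 members passed in any of 7 comparisons. These set gluteal against longissimus within Wutou, within Sanfen and over both strains, set Wutou against Sanfen within gluteal, within longissimus and over both muscles, and asked whether the muscle contrast differed between strains. Few loci of any kind passed. At most 3 were called in a comparison, which was 0.0242% of loci for the muscles of Sanfen, 0.0161% for the strains in longissimus, 0.00806% both for the strains in gluteal and for the interaction, and 0% for the muscles of Wutou and for the 2 averaged comparisons. In bulk tissue, fewer cells of a type and less RNA per cell cannot be told apart, and this holds for each difference below.

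Between the muscles of Sanfen, 41 of 44 members had a fitted change above 0, that is, higher in gluteal than in longissimus, against 67.6% of all loci (plot of fitted changes). The median over members was 0.31 on the log2 scale, against 0.08 over all loci. By complex the fitted change was above 0 in 4 of 4 members of complex II (median 0.27), 8 of 9 of complex III (median 0.27), 12 of 14 of complex IV (median 0.34) and 17 of 17 of complex V (median 0.33). The direction of the median was the same when libraries were rescaled by median of ratios (0.19, 40 members above 0) or to equal FPKM totals (0.23, 41 members). It was 0.21 with 38 members above 0 without Sanfen longissimus replicate 2, and 0.25 with 40 without Sanfen gluteal replicate 1. Without Sanfen longissimus replicate 2, 68.7% of all loci were above 0 with a median of 0.11, so the members stood less far above all loci.

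Single members stood out within that comparison by values and not by a passed test. The unadjusted p was under 0.05 for 4 members, all higher in gluteal, of 44 tested, where 2.87% of all loci did so in that direction and 0.701% in the other. They were COX7C, COX8A, COX7A1 and UQCR10. The last pair no longer did without Sanfen longissimus replicate 2: COX7A1 then had a fitted difference of 0.40 (unadjusted p = 0.176), against 0.90 with that library, and UQCR10 one of 0.48 (unadjusted p = 0.168, limma). In that fit UQCRB was the only member under 0.05 on the lower side. With all libraries and the replicate number as a fixed block, only COX7C and COX8A were under 0.05 (limma). A random block kept all 4 members and added COX7B. The 2 groups did not overlap for COX7C, COX8A, CYC1, UQCR11 and UQCRFS1, which is 5 of 44 members against 6.27% of all loci with gluteal wholly above longissimus. No member lay wholly below, against 1.27% of all loci.

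COX7C, a small nuclear subunit of complex IV at locus MSTRG.10863, had the strongest contrast. It had 129, 127 and 120 FPKM in Wutou gluteal, 195, 157 and 143 in Wutou longissimus, 198, 207 and 158 in Sanfen gluteal and 83.5, 52.1 and 78.0 in Sanfen longissimus. All 3 Sanfen longissimus libraries lay below every other library, and Sanfen gluteal overlapped with Wutou longissimus only. In Sanfen the level averaged 187 ± 26.2 FPKM in gluteal and 71.2 ± 16.8 in longissimus (SD, n = 3 each), a fitted difference of 1.40 on the log2 scale (SE 0.23, unadjusted p = 6.66e-05, limma). It ranked 5 among all loci by p, and its adjusted p was 0.165. The adjusted p ran between 0.0705 and 0.685 over the 21 alternative settings, none of which called it. Without Sanfen longissimus replicate 2 the difference was 1.20 (adjusted p = 0.288, limma).

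In Wutou the order of the muscles was the other way for COX7C. It averaged 126 ± 4.71 FPKM in gluteal and 165 ± 26.9 in longissimus (SD, n = 3 each), with no overlap and a fitted difference of -0.38 (limma, adjusted p = 0.900). The difference between those 2 muscle contrasts was -1.78 on the log2 scale (SE 0.33, unadjusted p = 0.000170), which ranked 6 among all loci and had an adjusted p of 0.306. It lay between -1.91 and -1.49 in every alternative setting tried.

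COX8A, at far lower levels, also had its lowest group mean in Sanfen longissimus. It averaged 3.76 ± 0.927 FPKM in Sanfen gluteal and 1.04 ± 0.668 in Sanfen longissimus (SD, n = 3 each), without overlap, a fitted difference of 1.25 on the log2(FPKM + 1) scale, which understates changes at such low values (SE 0.38, unadjusted p = 0.00694, limma). Adjusted over all loci the p was 1. In Wutou its muscles hardly differed, at 3.95 ± 2.06 FPKM in gluteal and 3.83 ± 1.85 in longissimus, and replicate 2 was the low library in both.

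**Figure D4:**
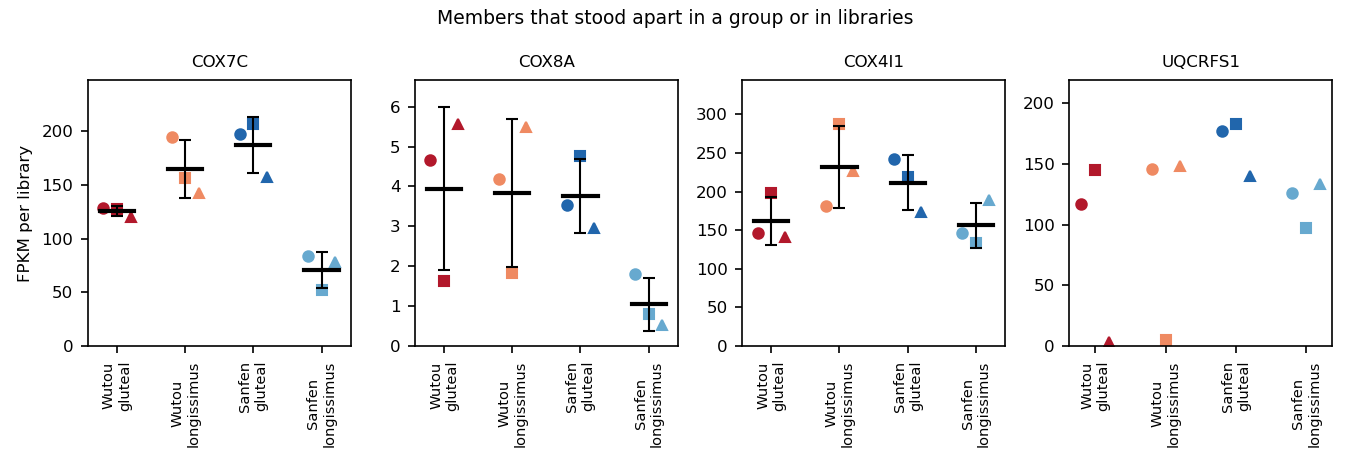
FPKM per library of COX7C, COX8A, COX4I1 and UQCRFS1 by group, on linear axes from 0, with marker shapes for the replicate number. Bars give the mean and SD of 3 libraries, except for UQCRFS1, where 2 libraries at 3.37 and 5.23 FPKM lie apart from the rest. All Sanfen longissimus values of COX7C lie below every other library.

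In the other complexes the smallest p between the muscles of Sanfen belonged to SDHB, UQCR10 and ATP5J. UQCR10, a small complex III subunit, had 33.3, 33.5 and 48.8 FPKM in Wutou gluteal, 33.6, 47.5 and 40.0 in Wutou longissimus, 53.3, 86.2 and 38.1 in Sanfen gluteal and 38.7, 20.6 and 41.3 in Sanfen longissimus. Its fitted difference was 0.78 (unadjusted p = 0.0390, limma), with overlapping groups, and 0.48 without either Sanfen longissimus replicate 2 or Sanfen gluteal replicate 2. ATP5J, the F6 subunit of the peripheral stalk, had 30.7, 41.5 and 51.3 FPKM in Wutou gluteal, 53.3, 44.2 and 44.2 in Wutou longissimus, 65.7, 50.7 and 39.1 in Sanfen gluteal and 40.7, 20.2 and 45.4 in Sanfen longissimus. Its fitted difference was 0.58 and that of SDHB 0.30, with overlapping groups in both cases. Leaving out Sanfen longissimus replicate 2 gave 0.23 for ATP5J and 0.13 for SDHB, and without Sanfen gluteal replicate 1 that of SDHB was 0.18.

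Between the muscles of Wutou the members showed no common direction. The fitted change was above 0 in 23 of 44 members, against 58.6% of all loci, with a median of 0.01 against 0.05 over all loci. This count was 14 after median-of-ratios rescaling and 36 with equal FPKM totals, so it turned with the scaling. Complex II had 4 of 4 members above 0 (median 0.10), complex III 2 of 9 (median -0.07), complex IV 9 of 14 (median 0.04) and complex V 8 of 17 (median close to 0). With unadjusted p under 0.05 there was 1 member, COX6A1, against 4% of all loci in that direction and 1.68% in the other. Gluteal lay wholly above longissimus for SDHA and COX6A1, against 8.7% of all loci, and wholly below for COX7C, against 4.18%. COX6A1 averaged 2.38 ± 0.576 FPKM in Wutou gluteal and 1.31 ± 0.505 in Wutou longissimus (SD, n = 3 each) without overlap, a fitted difference of 0.56 (unadjusted p = 0.0481, adjusted p = 0.870, limma).

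In complexes II, III and V the smallest p between the Wutou muscles belonged to SDHA, UQCRQ and ATP5F1. UQCRQ, a complex III subunit near the quinone site, had 57.4, 61.5 and 87.6 FPKM in Wutou gluteal, 77.8, 95.5 and 77.8 in Wutou longissimus, 85.9, 73.4 and 66.6 in Sanfen gluteal and 68.3, 49.8 and 69.2 in Sanfen longissimus. Its fitted difference in Wutou was -0.30, with overlapping groups, and it was -0.18 without gluteal replicate 1 and -0.48 without gluteal replicate 3. ATP5F1, subunit b of the peripheral stalk, had 49.4, 58.0 and 62.3 FPKM in Wutou gluteal, 59.0, 40.8 and 34.2 in Wutou longissimus, 48.5, 59.4 and 31.5 in Sanfen gluteal and 52.6, 31.1 and 38.0 in Sanfen longissimus. Its fitted difference was 0.36, again with overlap, and it was 0.19 without longissimus replicate 3 and 0.58 without longissimus replicate 1. COX4I1 had the lowest fitted value of the members between these muscles, -0.51 (unadjusted p = 0.0671), at 162 ± 31.3 FPKM in gluteal and 232 ± 52.8 in longissimus.

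Averaged over strains, 40 of 44 members had a fitted change above 0 towards gluteal, against 65.9% of all loci, and the median was 0.17 against 0.07. The median was 0.05 with 29 members after median-of-ratios rescaling, 0.08 without Sanfen longissimus replicate 2 and 0.11 without Sanfen gluteal replicate 1. Over all loci the median without Sanfen longissimus replicate 2 was also 0.08. The member of complex V with the smallest p was ATP5S, with 2.04, 2.49 and 1.84 FPKM in Wutou gluteal, 2.12, 1.40 and 1.85 in Wutou longissimus, 2.01, 2.45 and 1.90 in Sanfen gluteal and 2.19, 1.42 and 1.17 in Sanfen longissimus. Its averaged difference was 0.22 with overlapping groups. With unadjusted p under 0.05 were COX7C (0.51) and COX8A (0.63), 2 of 44 against 5.42% of all loci in that direction, and 1.14% of all loci lay on the lower side.

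**Figure D5:**
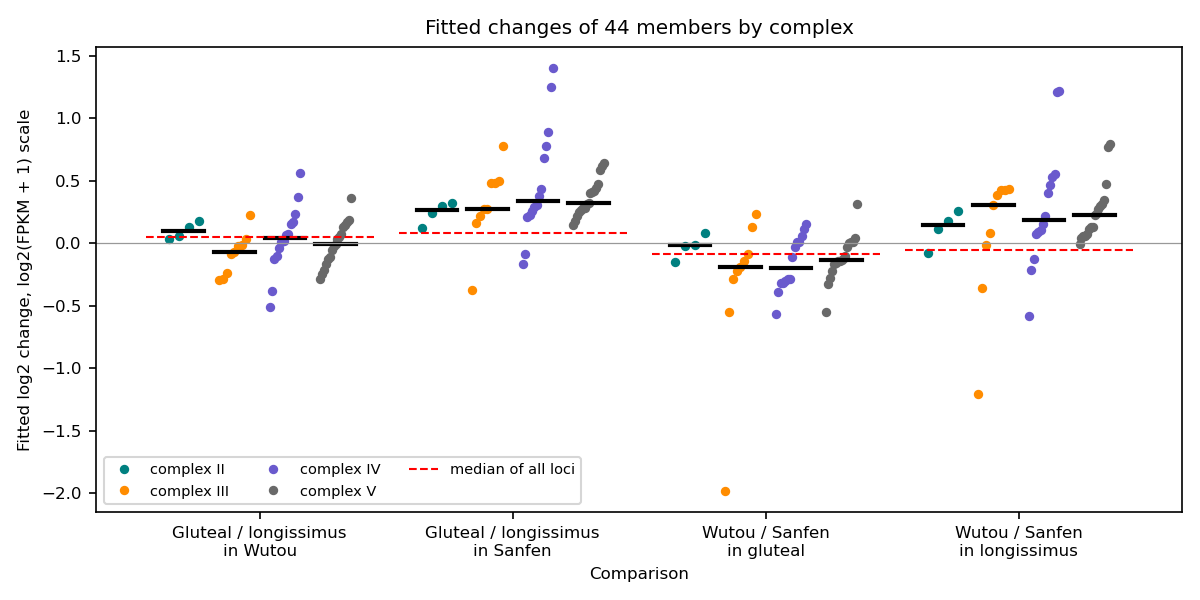
Fitted log2 change of each member, one point per member, in the 4 comparisons between pairs of groups, with points split by complex. Black bars are complex medians and dashed red lines the median of all loci tested. Members lie mostly above the red line between the muscles of Sanfen and between the strains in longissimus, and UQCRFS1 is the lowest point in both strain comparisons.

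Between the strains in longissimus, 36 of 44 members had a fitted change above 0, that is, higher in Wutou than in Sanfen, whereas 40.7% of all loci did. The median over members was 0.20, against -0.06 over all loci. By complex the count was 3 of 4 in complex II (median 0.15), 6 of 9 in complex III (median 0.31), 11 of 14 in complex IV (median 0.19) and 16 of 17 in complex V (median 0.23). This direction depended on scaling and on a single library. With equal FPKM totals the member median was -0.03 with 21 members above 0, while the median of all loci moved to -0.20, and after median-of-ratios rescaling it was 0.30 with 39 members above 0. Relative to all loci the member median was 0.25 as fitted, 0.18 with equal totals and 0.29 with median of ratios. Without Sanfen longissimus replicate 2 it was 0.03 with 25 members above 0, or 0.07 relative to all loci, and without replicate 1 or replicate 3 of that group it was 0.30 and 0.31.

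The groups did not overlap for 7 members in this comparison, all with Wutou longissimus above Sanfen longissimus, against 3.88% of all loci in that direction and 7.92% in the other. They were UQCRQ, COX5B, COX7C, COX8A, ATP5E, ATP5G1 and ATP5ME. Here and in the other comparisons, overlap was read on the values as deposited. Equal FPKM totals would multiply the Wutou longissimus libraries by 0.820 to 0.988 and the Sanfen longissimus libraries by 1.01 to 1.13. Such factors draw these groups together, so this count depends on the scaling, and it was not recounted after rescaling. COX5B averaged 174 ± 16.6 FPKM in Wutou longissimus and 127 ± 22.6 in Sanfen longissimus, and ATP5G1 averaged 151 ± 10.1 FPKM in Wutou longissimus and 121 ± 9.49 in Sanfen longissimus (SD, n = 3 each). ATP5ME, membrane subunit e, had 27.1, 59.1 and 56.2 FPKM in Wutou gluteal, 53.7, 46.9 and 66.4 in Wutou longissimus, 52.4, 39.7 and 58.3 in Sanfen gluteal and 40.7, 19.3 and 40.9 in Sanfen longissimus. Its fitted strain difference in longissimus was 0.77 (unadjusted p = 0.0503, limma), and 0.43 without Sanfen longissimus replicate 2 (unadjusted p = 0.221).

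COX7C averaged 165 ± 26.9 FPKM in Wutou longissimus and 71.2 ± 16.8 in Sanfen longissimus (SD, n = 3 each), a fitted difference of 1.22 (SE 0.23, unadjusted p = 0.000227, adjusted p = 0.282, limma). COX8A averaged 3.83 ± 1.85 FPKM in Wutou longissimus and 1.04 ± 0.668 in Sanfen longissimus, a difference of 1.21 (adjusted p = 0.854, limma). Besides these 2 members, COX4I1 with 0.56 was higher at an unadjusted p under 0.05, so 3 of 44 members were, against 1.89% of all loci. On the lower side there was COX6A1 with -0.58, against 3.63% of all loci. The smallest p in complex II was that of SDHD, with a difference of 0.26 and overlapping groups, which ran between 0.08 and 0.54 as single libraries were left out. The comparison shares its Sanfen longissimus libraries with that between the muscles of Sanfen, so the 2 sets of values are not independent.

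Between the strains in gluteal muscle, 13 of 44 members had a fitted change above 0, against 34.2% of all loci, with a median of -0.14 against -0.09 over all loci. The median was -0.01 with 21 members above 0 after median-of-ratios rescaling and -0.08 with 17 with equal totals. It was -0.04 without Sanfen gluteal replicate 1, -0.05 without Wutou gluteal replicate 1 and -0.24 without replicate 3 of either group. By complex the count above 0 was 1 of 4 in complex II, 2 of 9 in complex III, 5 of 14 in complex IV and 5 of 17 in complex V.

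COX6A2 and COX7C did not overlap between the strains in gluteal muscle, both lower in Wutou, against 8.68% of all loci in that direction. No member was wholly higher in Wutou, against 2.19%. COX7C averaged 126 ± 4.71 FPKM in Wutou gluteal and 187 ± 26.2 in Sanfen gluteal, a difference of -0.56 (unadjusted p = 0.0319, adjusted p = 0.963, limma). COX6A2 averaged 95.3 ± 8.20 FPKM in Wutou gluteal and 120 ± 17.2 in Sanfen gluteal (SD, n = 3 each), a difference of -0.32, or -0.21 without Sanfen gluteal replicate 3. ATP5SL had 6.36, 7.63 and 11.8 FPKM in Wutou gluteal, 8.41, 9.85 and 10.2 in Wutou longissimus, 13.9, 13.6 and 10.6 in Sanfen gluteal and 10.2, 6.39 and 11.2 in Sanfen longissimus, with a gluteal strain difference of -0.55 (unadjusted p = 0.0470, limma) and overlapping groups. COX7C and ATP5SL were the 2 members under 0.05, against 4.06% of all loci lower and 0.798% higher at that p. UQCR10 (-0.55, or -0.24 without Sanfen gluteal replicate 2) and SDHB (-0.15) had the smallest p in their complexes.

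Averaged over muscles, 25 of 44 members had a fitted change above 0 towards Wutou, against 35.3% of all loci, with a median of 0.06 against -0.07. The median was 0.18 after median-of-ratios rescaling, -0.02 with equal totals and -0.07 without Sanfen longissimus replicate 2, so its direction turned. Without that library the median of all loci was -0.06. No member had an unadjusted p under 0.05, where 1.23% of all loci did on the higher and 4.74% on the lower side. The smallest p-values by complex belonged to SDHD (0.17), UQCRFS1 (-1.59), COX8A (0.59) and ATP5E (0.42). Without Sanfen longissimus replicate 2 the value of ATP5E was 0.13, and without one or the other of the 2 low Wutou libraries that of UQCRFS1 was -0.75 or -0.69.

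The muscle contrast was compared between strains through the interaction, the Wutou contrast minus the Sanfen contrast. It was below 0 in 39 of 44 members, against 54.6% of all loci, with a median of -0.30 against -0.03. By complex it was below 0 in 3 of 4, 8 of 9, 12 of 14 and 16 of 17 members of complexes II to V. With equal FPKM totals the member median was -0.01 and that of all loci 0.15, and 24 members were below 0. Without Sanfen longissimus replicate 2 the median was -0.20 with 33 members below 0, against a median of -0.07 over all loci. COX7C, COX8A (-1.24) and COX4I1 (-0.95) had an unadjusted p under 0.05, which is 3 of 44 members against 1.76% of all loci on that side and 0.83% on the other.

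COX4I1 ran the same way as COX7C in its group means: 162 ± 31.3 FPKM in Wutou gluteal and 232 ± 52.8 in Wutou longissimus, but 212 ± 35.6 in Sanfen gluteal and 156 ± 29.6 in Sanfen longissimus (SD, n = 3 each). Both its muscle contrasts had overlapping libraries, and the adjusted p of the interaction was 1 (limma). UQCR11, a small complex III subunit, had the smallest p of its complex. It had 54.7, 52.8 and 76.6 FPKM in Wutou gluteal, 85.1, 82.9 and 52.1 in Wutou longissimus, 76.1, 77.6 and 68.7 in Sanfen gluteal and 61.5, 46.8 and 51.2 in Sanfen longissimus, with an interaction of -0.72. ATP5ME (-0.91) and SDHB (-0.26) had the smallest p in complexes V and II. These were -0.56 and -0.09 without Sanfen longissimus replicate 2, and that of ATP5ME was also -0.56 without Wutou gluteal replicate 1.

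Genes that work with the complexes were read from fixed lists, and none passed the test in any comparison. Of the 37 complex I subunits, 37 had a fitted change above 0 between the muscles of Sanfen (median 0.37), 11 between those of Wutou (median -0.14), 34 between the strains in longissimus (median 0.33) and 9 in gluteal (median -0.09). Over all loci the share above 0 was 67.6%, 58.6%, 40.7% and 34.2% in these 4 comparisons. In Sanfen longissimus replicate 2 the complex I subunits had a mean deviation of -0.68 on the log2 scale. Without that library 31 of 37 were above 0 between the muscles of Sanfen (median 0.18) and 26 between the strains in longissimus (median 0.17), against 68.7% and 45.3% of all loci. Of 32 tested assembly factors of complexes II to V, 25 were above 0 between the muscles of Sanfen (median 0.25), led by PET100, which acts in building complex IV (1.12, unadjusted p = 0.00167, adjusted p = 1, limma). UQCC2, a complex III assembly factor, had an interaction of -2.53 (unadjusted p = 0.00310, adjusted p = 1, limma). Of 14 tested electron carriers and genes of ATP exchange, 13 were above 0 between the muscles of Sanfen (median 0.32). Of 15 tested regulators of respiratory chain genes, 7 were (median -0.02). Between the muscles of Sanfen an unadjusted p under 0.05 was reached by 4 complex I subunits, 6 assembly factors, 2 carriers and no regulator, all higher in gluteal, where 2.87% of all loci reached it on that side and 0.701% on the other. Without Sanfen longissimus replicate 2 it was reached on the higher side by 2 complex I subunits, 2 assembly factors and 1 carrier, and on the lower side by 1 assembly factor.

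Marker lists of fibre types and other cells moved with some of these comparisons. Slow fibre markers summed to between 2539 and 2769 FPKM in Wutou gluteal, below the 3704 to 7740 in Sanfen gluteal. Fast fibre markers summed to between 20868 and 22049 FPKM in Wutou longissimus, above the 7599 to 19243 in Sanfen longissimus. FPKM totals were likewise higher in Wutou longissimus, 265498 to 319767, than in Sanfen longissimus, 231193 to 258793. The marker sums were not rescaled, and the separation of the fast fibre sums depends on the scaling. Equal FPKM totals would multiply the 21520 FPKM of Wutou longissimus replicate 2 by 0.820. They would multiply the 17682 FPKM of Sanfen longissimus replicate 1 by 1.13, which puts it above the former, so the fast fibre sums would overlap. Tendon and cartilage markers, with 3 of 9 genes tested, summed to between 20.9 and 28.7 FPKM in Wutou longissimus, below the 34.9 to 109 in Sanfen longissimus. No gene of these 3 lists that is in the table was at 0 in all libraries. Sums of the endothelial (48.3 to 92.3 FPKM over all libraries), adipocyte (19.6 to 55.6), smooth muscle and pericyte (1048 to 2633) and leukocyte (7.67 to 15.1) lists overlapped between the strains in each muscle. The smooth muscle and pericyte list includes DES, which is also on the muscle identity list, and the median of its gene means was 5.54 FPKM. Its sum therefore rests on few genes and does not measure those cells. The part of these markers in the members' differences was not tested.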

How the data were processed

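FPKM per assembled locus in 12 libraries were deposited by the authors as 1 table, per the file headers. Per the submitters' processing notes, cutadapt, Bowtie2 and TopHat2 were used, and versions, genome build, annotation and depth are not given in the sources used here. LOC names were updated through the RefSeq gene table of the donkey reference: 3020 of 5731 matched and 937 gained another symbol. The name rule matched 47 rows, and 3 names had more than 1 row. Members and gene lists were chosen with earlier results of these data known.

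Loci with at least 1 FPKM in at least 3 libraries were fitted with limma 3.58.1 (R 4.3.3) on log2(FPKM + 1) in a model of 4 groups, with an intensity trend in the moderated variances and Benjamini-Hochberg adjustment over 12408 loci. For the strains over both muscles, libraries with the same strain and number formed a random block (correlation 0.188), since the design text has each donkey give both muscles. The check below fell short of its limit for replicate 3 of Wutou, so the fit without the block is given in the closing section. The code was tested on simulated data. Isoform shares used scipy 1.17.1. The members named with values in every library were those of complex II, the isoform families of complex IV, the most abundant member of each complex and, per comparison, the member of each complex with the smallest p, and COX5B, CYC1 and COX4I1 were singled out further after their values were seen. Lists of blood and mitochondrially encoded genes had no gene tested.

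Whether the replicate numbers pair the muscles was checked with correlations of deviations from group means. Same-numbered Sanfen libraries gave 0.246, 0.110 and 0.158, all above the limit of 0.1, so the numbers were taken to pair them. The Wutou libraries gave 0.182, 0.165 and 0.0711, and as the last fell short of that limit they were not taken as pairs. Libraries of different number gave -0.149 to -0.000829 in Sanfen and -0.169 to 0.0126 in Wutou. In both strains each library thus correlated best with the same-numbered one, and only the limit of 0.1 sets the strains apart. The labels do not give this pairing, which rests on the values alone. For that reason the main fit of the muscle contrasts and the interaction used no block, in Sanfen as in Wutou. The SEs and p-values of these comparisons therefore ignore the pairing, and fits with a block are given as alternatives. Alternatives covered the pseudocount, the filter, rescaling, the blocks and each library left out.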

Additional observations from a re-analysis of the deposited data

Results flagged for a closer look

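COX7C had a muscle contrast of opposite direction in the 2 strains: all gluteal libraries of Sanfen lay above its longissimus libraries, and all gluteal libraries of Wutou lay below its longissimus libraries. The strain contrast likewise had opposite directions in the 2 muscles. Both are the same interaction, -1.78 on the log2(FPKM + 1) scale (SE 0.33, limma). The difference itself was tested and had an unadjusted p of 0.000170 and an adjusted p of 0.306, so it did not pass over all loci.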

How the results depend on the processing

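No member passed the threshold under any alternative tried, and the lowest adjusted p of a member was 0.0705, for COX7C between the muscles of Sanfen (limma). Counts of members called were 0 when any single library was left out. The isoform share was 1.5% to 1.58% for COX4I2, 97.8% to 98.1% for COX6A2 and 96.0% to 96.6% for COX7A1 as single libraries were left out. These are means over libraries, which 1 library of 12 can move only little, so the ranges do not test the shares. Of 144 alternative medians over members, 142 lay within 0.21 of the reported median. That limit is the SD of the member mean within groups on the log2 scale. It exceeds most of the reported medians, so a median can turn sign within it. The other 2 came with equal FPKM totals: -0.026 between the strains in longissimus and -0.011 for the interaction. With single libraries left out, the median over members ran between 0.21 and 0.43 for the muscles of Sanfen, -0.07 and 0.06 for those of Wutou, 0.08 and 0.22 for muscles over strains, 0.03 and 0.31 for strains in longissimus, -0.24 and -0.04 for strains in gluteal, -0.07 and 0.10 for strains over muscles, and -0.43 and -0.20 for the interaction. Leaving out UQCRFS1, an alternative chosen after seeing the data, gave medians of 0.31, 0.02, 0.22 and -0.13 for the muscles of Sanfen, those of Wutou, the strains in longissimus and the strains in gluteal.

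Counts over all loci were small and moved more, and the cause was not tested. As reported they were 3 for the muscles of Sanfen, 2 for the strains in longissimus, 1 each for the strains in gluteal and the interaction and 0 for the other 3 comparisons. A pseudocount of 0.1 gave 5 for the muscles of Sanfen, 6 for the strains in longissimus and 0 for the strains in gluteal. No filter gave 5 for the muscles of Sanfen, 1 for muscles over strains, 4 for the strains in longissimus, 1 for strains over muscles and 2 for the interaction. A minimum of 5 FPKM gave 1 for the muscles of Sanfen and 0 for the strains in longissimus, the strains in gluteal and the interaction. Median-of-ratios rescaling gave 2 for the muscles of Wutou, 0 for the strains in gluteal and 2 for the interaction. Equal totals gave 1 for the strains in longissimus and 0 for the strains in gluteal. With single libraries left out, the counts ran between 0 and 5 for the muscles of Sanfen, 0 and 2 for those of Wutou, 0 and 4 for muscles over strains, 0 and 6 for strains in longissimus, 0 and 3 for strains in gluteal, 0 and 1 for strains over muscles, and 1 and 5 for the interaction.

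With the replicate number as a fixed block, the count was 1 for the muscles of Sanfen, where the numbers were taken to pair the libraries. In Wutou, where the correlation of replicate 3 was 0.0711 and below the limit, the fixed block gave 0 loci. A random replicate block gave 3 loci for the muscles of Wutou and 2 for the interaction, and strains over muscles without the block gave 0 loci, 0 members and the same median of 0.06. Without it the adjusted p of UQCRFS1 was 0.678, and no member had an unadjusted p under 0.05. The block changed no call of a member, but it did change which members had an unadjusted p under 0.05. For the interaction the fixed block kept COX7C, COX8A and COX4I1 on the lower side and added UQCRB and COX6A1 on the higher side (limma).

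Depth is unknown, so members at about 1 to 5 FPKM, such as COX6A1, COX8A and COX7A2L, have no stated counting error, and their differences are drawn together by the pseudocount. With 3 libraries a group, an exact test of a single value cannot go below p = 0.1.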

Other observations

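Loci of the same machinery that the name rule does not take were measured as well. USMG5, a small ATP synthase subunit, averaged 34.7 ± 5.67 FPKM in Wutou gluteal, 34.7 ± 7.55 in Wutou longissimus, 41.9 ± 10.3 in Sanfen gluteal and 28.5 ± 14.2 in Sanfen longissimus (SD, n = 3 each), with its lowest library, 13.1 FPKM, in Sanfen longissimus replicate 2. ATPIF1, the inhibitor of ATP synthase, averaged 23.3 ± 0.883 FPKM in Wutou gluteal, 20.5 ± 3.32 in Wutou longissimus, 27.0 ± 1.33 in Sanfen gluteal and 19.1 ± 7.52 in Sanfen longissimus (SD, n = 3 each), and its lowest value, 10.4 FPKM, came from the same library.

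CYCS is the cytochrome c that carries electrons between complexes III and IV. The locus read under that name is described only as a partial cytochrome c-like protein. Whether its values stand for the whole gene was not tested. This locus averaged 5.16 ± 0.350 FPKM in Wutou gluteal and 7.0 ± 5.58 in Wutou longissimus. It averaged 10.8 ± 4.95 in Sanfen gluteal and 10.4 ± 5.28 in Sanfen longissimus (SD, n = 3 each). All 3 Wutou gluteal libraries lay below the Sanfen gluteal ones, as did 8.68% of all loci tested, and the fitted difference of -0.86 did not pass the test (limma, adjusted p = 0.963). The delta subunit gene ATP5D shares a merged row with its neighbour MIDN at 8.71 FPKM on average, so its own level cannot be read.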
